A study of Mus musculus with 23 samples.

Results

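Villus-side epithelial cells of the mouse small intestine were compared between postnatal day 10 (P10) and postnatal day 6 (P6). The comparison used every library labelled villus at these ages, 3 at P10 and 2 at P6, which are 5 of the 23 libraries analysed in the series. In all groups the cells came from CD1 mice, an outbred stock, with no transgene, deletion or treatment named. Medial small intestine was flushed, its epithelium was released with EDTA, and cells were sorted by flow cytometry for Epcam, an epithelial surface protein, and CD44, a surface protein of crypt cells. Villus cells were Epcam positive and CD44 negative, and crypt cells were positive for both. DNase-treated total RNA went into poly(A) libraries made with the KAPA stranded kit. The labels do not say whether libraries came from separate animals, litters or pools, so each p-value reflects only the scatter among these libraries, some or all of which may be technical.

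The villus is the absorptive projection of the small intestine, lined by enterocytes that take up nutrients, with goblet cells that secrete mucus and scattered hormone-producing and tuft cells. Crypts at its base hold the stem cells, which divide under Wnt signals. In the mouse, crypts form and Paneth cells, which secrete antimicrobial peptides at the crypt base, appear during the first weeks after birth, while the pup lives on milk. Suckling enterocytes express lactase and take up intact proteins by endocytosis, and adult-type sugar enzymes come on at weaning.

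Library totals were 29838581 and 27773415 counts at P6 and 27404083, 34075619 and 27211038 counts at P10, within the 23545159 to 37055554 of the whole series. Levels are given as CPM, in library order, the deposited counts divided by library sizes adjusted with the trimmed mean of M-values (TMM). The libraries do not share a common total on this scale. All genes tested summed to between 1317000 and 1362000 CPM at P6 and between 851900 and 909000 CPM at P10. A CPM value is thus not a share of its library's counts, and P6 values are raised relative to P10 values when compared with such shares. The sorted identity was checked first. Epcam stood at 1744 and 1759 CPM at P6 and at 1341, 1497 and 1420 CPM at P10. Vil1, villin of the brush border, was at 433 and 629 CPM and then at 1385, 1624 and 1605 CPM, and Fabp2, an enterocyte fatty acid binding protein, at 6012 and 7172 CPM and then at 2150, 1996 and 2525 CPM, so enterocyte markers were present in all 5 libraries. Transcripts of the gate protein Cd44 were also present, at 53.6 and 24.8 CPM at P6 and 22.1, 24.3 and 24.7 CPM at P10. They were at 71.7 ± 8.19 CPM (mean ± SD, n = 3) in P10 crypt cells, and the P10 villus minus crypt difference was -1.60 ± 0.35 (log2 ± SE, edgeR adjusted p = 0.00263). Between P6 and P10 villus cells Cd44 did not pass either test, with -0.73 ± 0.39 on the log2 scale (edgeR adjusted p = 0.0996). P6 library 1 held more of it than each of the other libraries.

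The P6 and P10 libraries differed in the base composition of the transcripts they counted. The mean GC content of a counted transcript was 44.7% ± 0.213 (SD, n = 2) at P6 and 49.95% ± 0.045 (SD, n = 3) at P10, a gap of 5.22 percentage points. It was 44.8% ± 0.178 in P6 crypt cells and 49.8% ± 0.174 in P0 villus cells (SD, n = 3 each). The P3 libraries lay between, at 46.6% ± 0.626 in villus and 46.6% ± 0.736 in crypt cells (SD, n = 3 each). Mitochondrially encoded genes held 9.57% and 10.3% of the counts at P6 and 3.61% to 5.18% at P10. Without these genes the gap in GC content was 5.02 percentage points. Transcripts of under 40% GC had a median difference of -2.19 (P10 minus P6, log2, 995 genes), those of 50% to 55% GC one of 0.86 (4249 genes), and those of over 60% GC one of 4.27 (730 genes). A smooth curve of the difference against GC content took up 62.3% of its variance over genes in villus cells and 64.4% in crypt cells, but 2.14% of the variance of the P10 minus P0 villus difference. Whether this composition arose in the cells or in library preparation cannot be told apart, since all P6 libraries carry it.

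**Figure D1:**
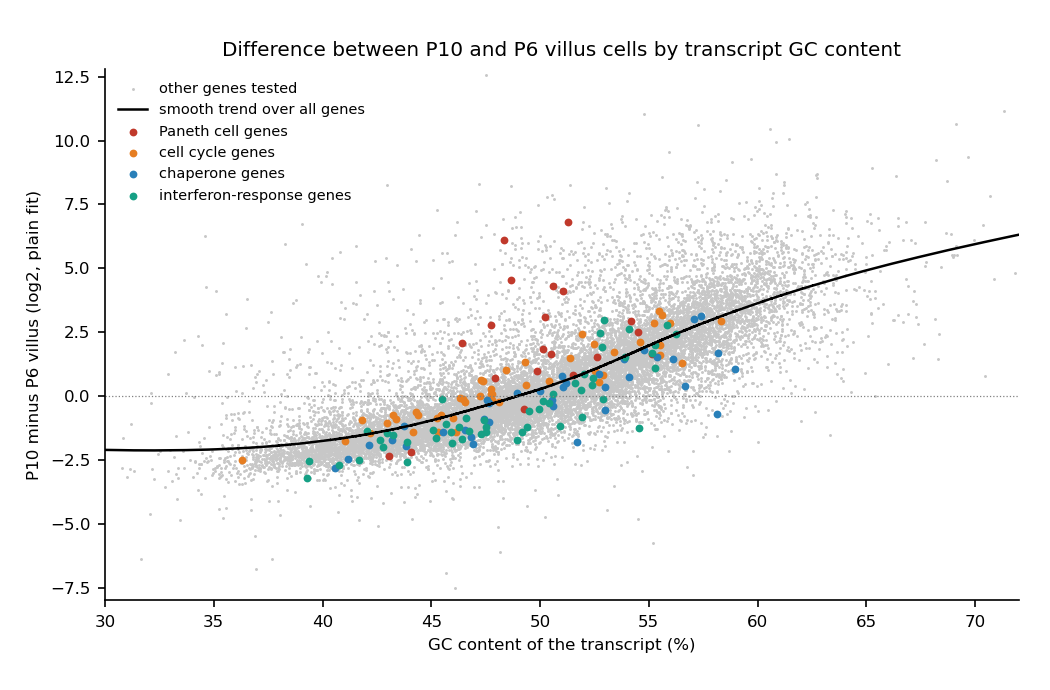
Each point is a gene, with transcript GC content in percent on the x axis and the P10 minus P6 villus difference (log2, edgeR fit without GC terms) on the y axis. The line is the trend of all genes and runs from below 0 at low GC content to above 0 at high GC content; coloured points mark Paneth, cell cycle, chaperone and interferon genes. Genes with no count in 1 age have fitted values that depend on the prior count.

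For that reason each gene was tested with edgeR's quasi-likelihood test in 2 fits, a plain one and one with offsets that remove each library's own trend with GC content and transcript length. A gene is said below to have risen or fallen only where the Benjamini-Hochberg adjusted p was under 0.05 in both, in the same direction. In the plain fit 5886 genes were higher and 5509 lower at P10, 68.9% of 16535 tested. With library size alone as the scaling, the median of all genes moved up by 0.60 on the log2 scale and the split became 7521 higher and 3548 lower. In the GC-adjusted fit 3041 were higher and 3408 lower, 39.5% of 16330 tested. In both fits 2507 genes rose (15.4%) and 2208 fell (13.5%). Another fit, here the local GC fit, whose offsets also held the GC content of the last 1000 bases and of 200-base windows, kept 1874 of the risen genes (11.5%) and 1397 of the fallen ones (8.55%). With each P6 library used alone, 1614 genes passed the first 2 fits upward (9.88%) and 1072 downward (6.56%), and 1185 and 505 passed all 3 fits (7.26% and 3.09%). Differences are P10 minus P6 on the log2 scale with their standard errors, and adjusted p-values are edgeR's.

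Over the gene groups, the share of members that rose in both fits was high among Paneth cell genes (11 of 20 tested), sugar breakdown and synthesis (11 of 27), cytosolic ribosomal proteins (34 of 84), proteasome subunits (16 of 38), respiratory chain subunits (29 of 76) and keratins with annexins and galectins (8 of 22), against 15.4% of all genes. The share that fell was high among chaperones of the endoplasmic reticulum and heat shock families (10 of 36), against 13.5% of all genes. Among cell junction genes 10 of 31 fell, but 3 did without P6 library 2. Interferon-response genes had 9 of 52 lower.

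**Figure D2:**
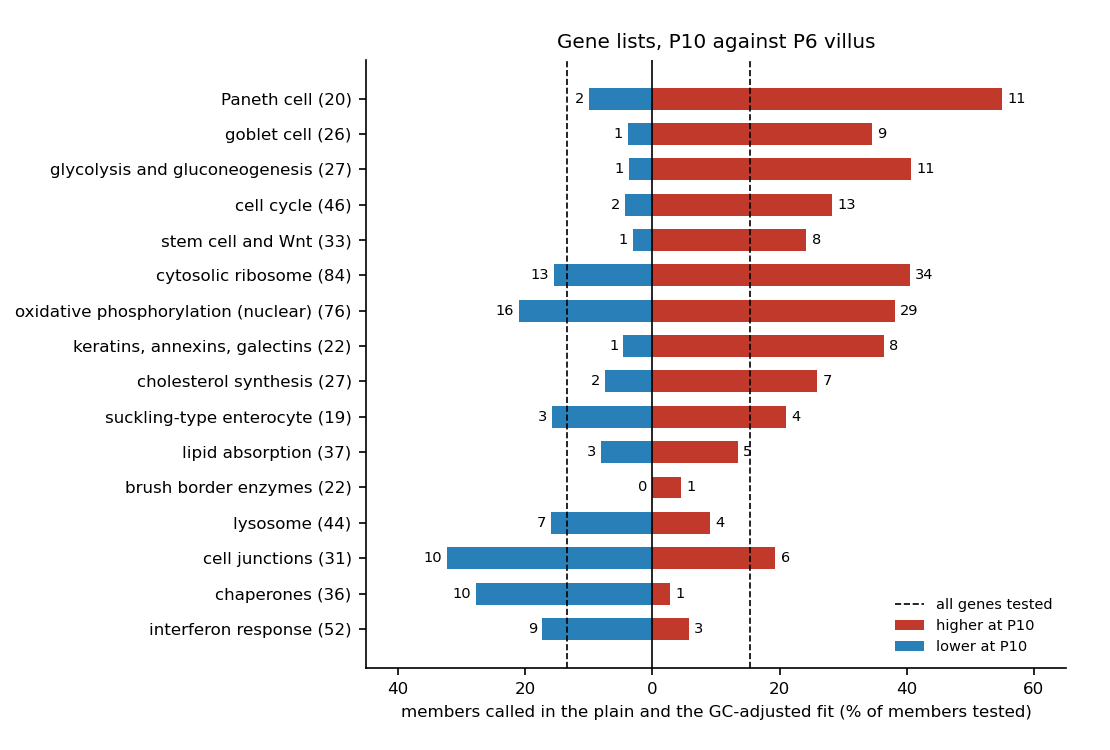
Bars give the percent of tested members of 16 gene groups that rose (right of 0) or fell (left of 0) from P6 to P10 in villus cells, called in both fits. Dashed lines mark 15.4% higher and 13.5% lower among all genes; Paneth genes reach 11 of 20 higher, chaperones 10 of 36 lower.

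Genes of Paneth cells were the group with the highest share of risen members among those plotted. Of 26 listed genes in the files, 20 were tested, 11 rose and 2 fell in both fits, and the median difference was 1.96 in the plain fit and 1.205 with GC adjusted, against 0.11 and -0.03 for all genes. The other 6, Defa-rs7, Defa3, Defa5, Defa20, Defa21 and Defa23, were too low to test. On the TMM scale the summed level of the list did not rise. It overlapped between the ages, at 3330 to 5213 CPM at P6 and 3344 to 4437 CPM at P10. All genes tested summed to between 1317000 and 1362000 CPM at P6 and between 851900 and 909000 CPM at P10. The P6 sum of the list is thus raised when compared with shares of counts. With either P6 library left out 6 members rose, and 5 rose in both cases and in all 3 fits. Besides antimicrobial genes the 11 include Clps and Pnliprp2, digestive proteins that the pancreas makes too, and Lyz2, a lysozyme of myeloid cells. In bulk RNA, fewer or more cells of a type and less or more RNA per cell cannot be told apart.

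The promoters of 3 Paneth cell genes are shown because Paneth cells lie in the Wnt zone of the crypt, where TCF/LEF proteins bind DNA. Each run is the 250 bases before the start site in RefSeq, build GRCm38.p6, 5′ to 3′ on the gene's strand. Capitals mark matches on either strand to CTTTG followed by any pair of A and T letters. Defa22, an alpha-defensin peptide, lies on the plus strand (chr8:21162027-21162276). Mptx1, a pentraxin, lies on the plus strand (chr1:174330268-174330517). Lyz1, Paneth cell lysozyme, lies on the minus strand (chr10:117292869-117293118) and holds no match.
Defa22: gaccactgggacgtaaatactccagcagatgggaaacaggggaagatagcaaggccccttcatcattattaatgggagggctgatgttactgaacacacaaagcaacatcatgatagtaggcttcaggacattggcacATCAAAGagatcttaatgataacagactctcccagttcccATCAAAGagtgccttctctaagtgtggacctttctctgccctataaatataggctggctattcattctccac
Mptx1: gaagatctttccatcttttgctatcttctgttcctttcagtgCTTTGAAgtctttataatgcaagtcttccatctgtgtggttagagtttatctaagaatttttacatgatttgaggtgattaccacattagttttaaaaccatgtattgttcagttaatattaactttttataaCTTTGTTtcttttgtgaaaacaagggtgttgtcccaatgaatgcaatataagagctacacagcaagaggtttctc
Lyz1: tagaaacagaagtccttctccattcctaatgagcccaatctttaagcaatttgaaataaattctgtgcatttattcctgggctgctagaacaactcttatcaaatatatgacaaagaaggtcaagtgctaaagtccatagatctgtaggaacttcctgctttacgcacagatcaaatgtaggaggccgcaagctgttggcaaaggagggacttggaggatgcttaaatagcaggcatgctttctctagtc
Such a match was found in 6 of the 15 Paneth genes with a promoter entry (Defa20, Defa21, Defa22, Defa23, Mmp7 and Mptx1) and in 14.8% of all 32851 RefSeq promoters of this length. The matches of Defa20, Defa21, Defa22 and Defa23 have the same letters at the same or nearly the same positions, so these related genes are not separate finds. A match describes letters only, and of the genes with one here, Defa22 rose, Mptx1 fell and Mmp7 passed neither direction in both fits.

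Lyz1 was at 40.1 and 40.3 CPM in the P6 libraries and at 279, 400.5 and 145 CPM in the P10 libraries. The groups did not overlap, the difference was 2.77 ± 0.50 (adjusted p = 5.95e-05) and with GC adjusted 2.91 ± 0.52 (adjusted p = 0.000237), and its transcript has 47.7% GC, a content at which the trend lies below 0. P10 library 3 was the lowest P10 library for Lyz1 and for each alpha-defensin named here except Defa24. Defa26 went from 0.530 and 0.834 CPM to 17.3, 21.4 and 8.52 CPM, a difference of 4.25 ± 0.54 with GC adjusted (adjusted p = 3.44e-06). Defa22, whose promoter is printed above, went from 0.442 and 0.638 CPM to 7.62, 14.6 and 6.15 CPM (3.35 ± 0.59, adjusted p = 0.000125). All 3 genes passed the 3 fits with each P6 library alone. AY761184, a defensin sequence outside the list, was at 0.177 and 0.638 CPM and then 30.01, 24.4 and 8.09 CPM. AY761185, another of these, had no count at P6 and 1.46, 1.65 and 0.769 CPM at P10. Alpha-defensins are near-identical copies, so how their reads were split between members is uncertain.

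The rise was not shared by all Paneth genes. Pla2g2a, a secreted phospholipase that kills bacteria, had 0.486 and 0.294 CPM at P6 and 121, 9.68 and 4.31 CPM at P10, so P10 library 1 was more than 10 times each other library. Its GC-adjusted difference of 5.94 ± 1.82 was called with all 5 libraries but not without P10 library 1 (3.44), P6 library 1 (6.49) or P6 library 2 (5.67), and the P10 crypt library numbered 1 was high too, at 95.4 CPM against 5.23 and 4.90 CPM. Ang4, an antimicrobial ribonuclease, went from 11.7 and 8.14 CPM to 60.6, 49.7 and 16.5 CPM and rose in both fits (2.31 ± 0.73, adjusted p = 0.0187), but not without P10 library 1 (2.06) or either P6 library (2.66 and 2.15). Defa24 was high at both ages, with 405 and 387 CPM at P6 and 646, 1010 and 691 CPM at P10, and its GC-adjusted difference of 0.49 ± 0.33 did not pass (adjusted p = 0.265). Itln1, a lectin, and Mmp7, the protease that matures defensins, did not pass either (adjusted p = 0.865 and 0.421, GC adjusted). The pentraxins fell: Mptx1 had 2853 and 1551 CPM at P6 and 477, 489 and 495 CPM at P10 (-1.39 ± 0.51, adjusted p = 0.0383). Mptx2 had 718 and 333 CPM and then 80.9, 119 and 112 CPM (-1.36 ± 0.52, adjusted p = 0.0467). P6 library 1 was the higher of the P6 pair for both, and without it the differences were -0.88 and -0.72 and not called. The calls of both were also lost with any 1 P10 library left out, at -1.29 to -1.47 for Mptx1 and -1.14 to -1.48 for Mptx2.

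Against birth, the P10 villus libraries, which enter both comparisons, also held more of these transcripts. Lyz1 was at 10.7 ± 2.89 CPM (mean ± SD, n = 3) in P0 villus cells, a P10 minus P0 difference of 4.68 ± 0.47 (adjusted p = 3.56e-06), and Defa26 at 0.618 ± 0.480 CPM (4.70 ± 0.50, adjusted p = 6.51e-06). In that comparison 21.5% of genes tested passed, and P0 and P10 libraries have nearly the same mean GC content. Mptx1 stood at 858 ± 552 CPM at P0. Within P10, Lyz1 did not differ detectably between villus and crypt cells (0.20 ± 0.40, adjusted p = 0.762), with 239 ± 27.1 CPM in crypt cells.

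**Figure D3:**
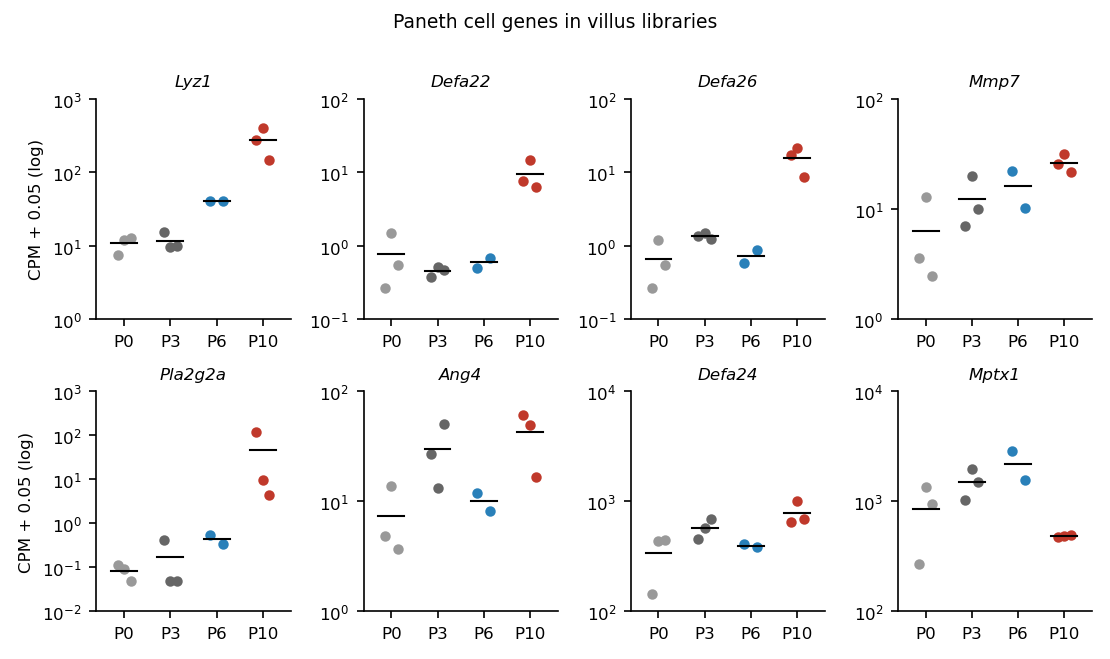
Points are villus libraries at P0, P3, P6 and P10 and bars are group means, in CPM plus 0.05 on a log axis, for 8 Paneth cell genes. Lyz1 lies near 40 CPM in both P6 libraries and between 145 and 400.5 CPM at P10, while Mptx1 lies between 1551 and 2853 CPM at P6 and between 477 and 495 CPM at P10.

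Among goblet cell genes 9 of 26 tested rose, against 15.4% of all genes, and 1 fell, the potassium channel Kcnk6. In all 3 fits 5 rose, against 11.5% of all genes. Fewer than 9 rose in both fits without P6 library 1, and most of the 9 did not hold in all 3 fits with each P6 library alone. Tff3, the trefoil peptide of goblet cells, had 25.7 and 38.3 CPM at P6 and 695, 599.6 and 649 CPM at P10, a difference of 2.25 ± 0.31 with GC adjusted (adjusted p = 1.02e-05) that held in all 3 fits with each P6 library alone. Its P0 villus level was 1025 ± 593 CPM, so P6 was the low age among these. Fcgbp, a mucus protein, went from 142 and 159 CPM to 1641, 2812 and 2941 CPM (1.69 ± 0.27, adjusted p = 4.54e-05). Zg16, a bacterial-binding lectin, had 21.3 and 105 CPM and then 438, 345 and 222 CPM (1.70 ± 0.63, adjusted p = 0.041) with P6 library 2 the higher of its pair, and was not called without P10 library 1 (1.55), P10 library 2 (1.65) or P6 library 1 (1.07). Muc2, the main secreted mucin, was at 83.4 and 179.7 CPM and 389, 486 and 502 CPM and rose in 2 fits (1.15 ± 0.29, adjusted p = 0.00374), but not without P6 library 1 (0.75), and its local GC value was 0.27 ± 0.26 (adjusted p = 0.461). Spdef, a goblet cell transcription factor, went from 1.94 and 1.96 CPM to 30.9, 36.0 and 37.4 CPM (1.17 ± 0.37, adjusted p = 0.0172), but held neither in the local GC fit (adjusted p = 0.152) nor without P6 library 2 (1.15). Clca1, an abundant goblet product, stood at 784 and 818 CPM and 676, 858 and 695 CPM and passed neither fit.

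Hormone-producing cell genes gave few calls. Of 30 enteroendocrine genes tested 2 rose and 1 fell, against 15.4% and 13.5% of all genes. Gip, the incretin of K cells, went from 2.12 and 4.22 CPM to 70.7, 59.0 and 42.7 CPM (2.71 ± 0.66, adjusted p = 0.00352), and Pcsk1n, a granule protein, had no count in either P6 library and 7.18, 5.77 and 6.98 CPM at P10. Insm1, a transcription factor of endocrine precursors, fell from 20.7 and 20.6 CPM to 10.2, 11.2 and 10.1 CPM against a GC trend that points up for its 62% GC (-4.26 ± 0.37 with GC adjusted). Its plain difference of -0.97 ± 0.27 was not called without P6 library 1 (-0.76) or without P6 library 2 (-0.79). Chga, a granule marker, had 11.1 and 18.4 CPM and 206, 164 and 189 CPM, but with GC adjusted its 0.92 ± 0.48 did not pass (adjusted p = 0.144). Of 11 tuft cell genes tested 3 rose and 1 fell, with 1 risen when either P6 library was left out; Krt18, a keratin shared with enterocytes, rose from 51.8 and 69.7 CPM to 709, 658 and 674 CPM, and Cd24a fell from 532 and 301 CPM to 120.2, 119.5 and 91.4 CPM (-0.66 ± 0.18), but not without P6 library 1 (-0.26). The other risen tuft cell genes were Avil and Tas1r3.

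Among genes of enterocyte function, brush border enzymes gave fewer calls in both fits than all genes did, and structural brush border genes did not. With 2 P6 libraries a missed threshold does not show that a level was unchanged. Of 20 structural brush border genes tested 5 rose and 1 fell, against 15.4% and 13.5% of all genes. In all 3 fits 1 of them rose and 1 fell. Of 22 brush border enzymes tested 1 rose and none fell, while 8 were higher and 10 lower in the plain fit. The riser was Naaladl1, a brush border peptidase, and it held neither in the local GC fit nor with each P6 library alone. Lct, lactase, had 926 and 1510 CPM at P6 and 2094, 3354 and 4387 CPM at P10, 1.43 ± 0.49 in the plain fit (adjusted p = 0.0142) and 0.69 ± 0.46 with GC adjusted (adjusted p = 0.247). Sis, the sucrase-isomaltase of weaned mice, stood at 66.0 and 46.1 CPM and 14.2, 16.5 and 18.7 CPM, with a GC-adjusted 0.10 ± 0.48 (adjusted p = 0.895). Fcgrt, the receptor that carries milk antibodies, had 227 and 452 CPM and 2200, 2250 and 2763 CPM and did not pass with GC adjusted (0.80 ± 0.55, adjusted p = 0.268). Fabp1, a fatty acid binding protein, overlapped between the ages at 1160 and 2112 CPM and 1683, 1174 and 1184 CPM. Cubn, the endocytic receptor cubilin, stood at 372 and 395 CPM and ranged from 112 to 388 CPM over the P10 libraries.

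The shares of endocytic and lysosomal genes that moved were not far from the 15.4% risen and 13.5% fallen of all genes. Of 22 genes of the apical endocytic machinery tested 4 rose, among them Amn, Pllp and Cltb, and 4 fell (Rab7, Cltc, Snx5 and Endod1). Amn, the amnionless subunit that carries cubilin to the membrane, rose from 4.50 and 9.61 CPM to 220.3, 259.9 and 309 CPM (1.76 ± 0.33, adjusted p = 0.000274). Endod1 fell from 230 and 280.5 CPM to 88.9, 117 and 122 CPM (-1.19 ± 0.17). Amn, Pllp and Endod1 held in all 3 fits with each P6 library alone. Among 44 lysosomal genes 4 rose and 7 fell. Gaa, which breaks down glycogen in lysosomes, rose from 3.58 and 5.003 CPM to 110.1, 140.1 and 186 CPM (2.23 ± 0.34, adjusted p = 4.13e-05). Tfeb, the transcription factor of lysosome genes, rose from 1.77 and 3.19 CPM to 77.1, 70.8 and 68.1 CPM (1.45 ± 0.22, adjusted p = 3.17e-05). Aga, aspartylglucosaminidase, fell from 53.8 and 49.5 CPM to 19.9, 24.7 and 35.8 CPM (-1.08 ± 0.26, adjusted p = 0.00265), though not without P6 library 1 in the plain fit (-0.68). The protease genes Ctsl and Ctsb passed no fit (GC-adjusted adjusted p = 0.791 and 0.485).

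Part of the genes that break down and build sugars rose. Of 27 tested 11 rose and 1 fell, Pdha1 of pyruvate dehydrogenase, and 8 of the risen genes also passed both fits with each P6 library alone. Pfkl, a phosphofructokinase, went from 5.43 and 5.69 CPM to 126, 121 and 115 CPM (2.17 ± 0.34 with GC adjusted, adjusted p = 4.45e-05). Pck2, the mitochondrial enzyme that makes phosphoenolpyruvate, went from 6.36 and 5.59 CPM to 39.2, 37.6 and 33.8 CPM (2.44 ± 0.27, adjusted p = 6.93e-07). Gpi1, glucose phosphate isomerase, went from 15.6 and 23.98 CPM to 155, 153 and 126 CPM (1.77 ± 0.21, adjusted p = 2.13e-06). In each, every P10 library was above both P6 libraries. Aldoa, an aldolase, went from 9.94 and 16.9 CPM to 193, 212 and 188 CPM (1.46 ± 0.27), and Khk, the fructose kinase, from 2.43 and 3.88 CPM to 85.1, 69.6 and 71.1 CPM (1.55 ± 0.24). Pfkp, another phosphofructokinase, has 48.9% GC and rose by less, from 63.3 and 74.7 CPM to 108, 127 and 127 CPM (0.81 ± 0.19 in the plain fit and 1.06 ± 0.19 with GC adjusted). Pck1, the cytosolic partner of Pck2, passed neither fit. For Aldoa the P0 villus level was 539 ± 279 CPM and for Pfkl 307 ± 177 CPM, above P10 in both.

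Other metabolic groups gave smaller shares of risen genes. Among all genes 15.4% rose and 13.5% fell. Of 30 genes of fatty acid oxidation and ketone synthesis 6 rose and 3 fell (Hadhb, Etfa and Acot1). Ucp2, a mitochondrial carrier, rose from 13.7 and 16.6 CPM to 216, 233 and 249.8 CPM (2.36 ± 0.16, adjusted p = 8.67e-09) and Acads, the short-chain dehydrogenase, from 3.58 and 5.003 CPM to 134, 133 and 133 CPM (1.88 ± 0.21), both in all 3 fits with each P6 library alone. Of 27 cholesterol genes 7 rose and 2 fell (Insig2 and Acat2), with 3 risen without P6 library 1 and 4 without P6 library 2. Srebf1, the transcription factor of lipid synthesis, rose from 4.42 and 7.55 CPM to 165, 179 and 179.5 CPM (2.32 ± 0.24, adjusted p = 3.6e-07). Of 37 lipid absorption genes 5 rose and 3 fell, and 1 rose without P6 library 1. Apoa4, an apolipoprotein of chylomicrons, had 838 and 1865 CPM and 18350, 18000 and 23110 CPM, a plain difference of 3.87 ± 0.72, and did not pass with GC adjusted (1.36 ± 0.57, adjusted p = 0.0653).

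The arginine and urea cycle set had 4 of 18 higher and 3 lower, against 15.4% and 13.5% of all genes. Without P6 library 1 there was 1 higher. Nags, which makes the activator of Cps1, rose from 1.501 and 3.04 CPM to 53.7, 59.99 and 50.9 CPM (1.55 ± 0.22, adjusted p = 1.29e-05). Slc25a15, the mitochondrial ornithine carrier, fell from 1283 and 1279 CPM to 383, 481 and 507 CPM (-1.05 ± 0.15, adjusted p = 1.28e-05). Ass1, of arginine synthesis, stood at 14.7 and 30.6 CPM and 89.6, 96.8 and 169.9 CPM and did not pass with GC adjusted (adjusted p = 0.362). Mt1, a metallothionein that binds zinc, rose from 5.39 and 26.2 CPM to 532, 272 and 297 CPM (3.38 ± 0.71, adjusted p = 0.00103), with P6 library 1 the lowest of the 5. Slc51a, a subunit of the bile acid exporter of the basal membrane, rose from 73.5 and 114 CPM to 232, 225 and 298 CPM (1.81 ± 0.46, adjusted p = 0.00437), but not without P6 library 1 (1.52).

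Components of ribosomes, the respiratory chain and the proteasome had more risen than fallen members. Of 84 ribosomal protein genes 34 rose and 13 fell, with 6 fallen without P6 library 2, and 31 rose in all 3 fits with each P6 library alone, against 7.26% of all genes. Their summed level went from 3484 and 3513 CPM at P6 to between 8295 and 12180 CPM at P10. Rps26 had 3.44 and 4.37 CPM and then 181, 146 and 115 CPM (5.03 ± 0.50, adjusted p = 4.71e-07) at 48.6% GC, where the trend is below 0. Rpl18 had 0.839 and 1.47 CPM and then 136, 95.2 and 81.1 CPM (5.67 ± 0.65, adjusted p = 2.46e-06). Ribosomal genes have many processed copies, so their counts are uncertain, and 3 predicted copies, Gm6472, Gm9800 and Gm10260, were among the largest rises.

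Of 76 nuclear genes of the respiratory chain 29 rose and 16 fell, and 26 rose and 7 fell in all 3 fits with each P6 library alone. Without P6 library 1 there were 10 that fell and without P6 library 2 there were 8. Uqcrq, a subunit of complex III, rose from 13.7 and 17.0 CPM to 243, 188 and 176 CPM (3.44 ± 0.30, adjusted p = 6.25e-08) with 50.2% GC, near the middle of all transcripts. Its P0 level was 581 ± 225 CPM. Atp5g2, a subunit of ATP synthase, fell from 2.38 and 3.33 CPM to 1.18, 0.629 and 1.17 CPM. Of 38 proteasome genes 16 rose and 4 fell (Psma5, Psma6, Psmd6 and Psmd12), with 2 fallen without P6 library 1. Psma7, a core subunit, rose from 35.8 and 40.6 CPM to 140.3, 129 and 112 CPM (1.09 ± 0.13, adjusted p = 2.11e-06), and Psmb10, of the immunoproteasome, from 1.68 and 3.24 CPM to 123, 118 and 95.7 CPM (3.13 ± 0.31, adjusted p = 2.56e-07).

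Chaperones had more fallen than risen members. Of 36 tested 10 fell and 1 rose in both fits, 5 fell in all 3 fits with each P6 library alone, and between 8 and 10 fell with any 1 of the 5 libraries left out. Their summed level was 17960 and 19060 CPM at P6 and between 8848 and 9645 CPM at P10. The sum of all genes tested also differed on this TMM scale. It was between 1317000 and 1362000 CPM at P6 and between 851900 and 909000 CPM at P10, so part of the gap is common to all genes. In the plain fit alone 14 were lower and 10 higher, and with library size alone as scaling the split turned to 11 lower and 18 higher. The riser was Hsp90ab1, a cytosolic chaperone, which did not hold in the local GC fit.

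The promoters of Hspa5 and Hsp90b1 are shown because both are known targets of the unfolded protein response, whose factors bind the element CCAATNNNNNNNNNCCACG. Each run is the 250 bases before the RefSeq start site in GRCm38.p6, on the gene's strand, with matches on either strand in capitals. Hspa5 is on the plus strand (chr2:34771840-34772089) and Hsp90b1 on the minus strand (chr10:86705445-86705694), where it holds a match in each orientation.
Hspa5: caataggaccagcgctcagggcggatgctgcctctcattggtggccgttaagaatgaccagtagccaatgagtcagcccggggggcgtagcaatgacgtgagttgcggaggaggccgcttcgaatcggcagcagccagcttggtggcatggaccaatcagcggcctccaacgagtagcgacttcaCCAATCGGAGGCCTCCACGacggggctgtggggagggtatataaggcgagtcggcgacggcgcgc
Hsp90b1: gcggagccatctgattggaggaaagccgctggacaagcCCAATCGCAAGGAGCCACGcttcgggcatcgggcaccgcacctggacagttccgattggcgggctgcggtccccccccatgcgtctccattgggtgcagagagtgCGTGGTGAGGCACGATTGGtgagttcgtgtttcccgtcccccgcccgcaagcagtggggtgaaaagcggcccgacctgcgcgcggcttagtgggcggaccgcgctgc
The element was found in 7 of 31 chaperone genes with a promoter entry and in 0.113% of all 32851 promoters. The 7 were Calr, Canx, Creld2, Dnajc3, Hsp90b1, Hspa5 and Pdia6, and their differences from P6 to P10 were not alike.

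Hspa5, the main chaperone of the endoplasmic reticulum, had 2521 and 2252 CPM at P6 and 761, 1005 and 961 CPM at P10. It fell by 1.39 in the plain fit and 0.49 with GC adjusted (adjusted p = 0.00912), but the latter was not called without P10 library 1 (-0.39) or P6 library 1 (-0.47). Hsp90b1, its partner of the HSP90 family, had 3988 and 3548 CPM and then 921, 1022 and 987 CPM (-0.74 ± 0.15, adjusted p = 0.00068) and held in all 3 fits with each P6 library alone. Pdia3, a disulfide isomerase, had 3088 and 2993 CPM and then 754, 867 and 843 CPM (-1.31 ± 0.15, adjusted p = 9.63e-07). On the TMM scale the P6 libraries were at least 2 times each P10 library for these 3 genes. Calr, calreticulin, which carries the same element, stood at 977 and 1150 CPM and 1145, 1256 and 1274 CPM and passed neither fit (0.20 ± 0.17, adjusted p = 0.302). Canx, calnexin, fell from 3021 and 3043 CPM to 732, 861 and 838 CPM, but at 42.2% GC its GC-adjusted difference was -0.34 ± 0.13 (adjusted p = 0.0363) and its local GC one -0.11 ± 0.12 (adjusted p = 0.512), and the call was lost without P10 library 1 (-0.29), P10 library 3 (-0.35) or P6 library 2 (-0.27). Xbp1, a transcription factor of the response, fell from 232 and 262 CPM to 160.3, 176 and 170 CPM (-0.55 ± 0.15 in the plain fit, which turned to 0.05 with library size alone as scaling, and -1.50 ± 0.17 with GC adjusted). Its plain call was lost without P6 library 1 (-0.42) and without P6 library 2 (-0.27).

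The mitochondrial chaperonin pair moved the same way. Hspe1, the small subunit, has 51.7% GC, at which the trend lies at 0.77, and fell from 94.8 and 82.9 CPM to 28.9, 25.6 and 21.7 CPM (-1.80 ± 0.20, and -2.69 ± 0.21 with GC adjusted, adjusted p = 3.35e-08). Hspd1, the large subunit, fell from 619 and 570.1 CPM to 204, 214 and 167 CPM (-1.03 ± 0.16, adjusted p = 2.97e-05). In P0 villus cells Hspa5 was at 1126 ± 219.7 CPM, Hsp90b1 at 925 ± 129 CPM and Pdia3 at 721 ± 65.8 CPM (mean ± SD, n = 3), closer to P10 than to P6 in each case.

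Defence genes depended on which P6 library was used. Of 52 interferon-response genes 9 fell and 3 rose (Irf1, Ifi35 and Lgals3bp) in both fits, but 15 fell without P6 library 1 and 1 fell without P6 library 2, and with library size alone as scaling the plain split went from 26 lower and 10 higher to 15 each. Parp9, an antiviral ADP-ribosyltransferase, fell from 171 and 257 CPM to 72.6, 86.5 and 81.7 CPM (-0.94 ± 0.19, adjusted p = 0.000594) and was the 1 member that fell in all 3 fits with each P6 library alone. Rtp4, an interferon-induced chaperone protein, had 30.7 and 59.8 CPM and then 13.1, 15.2 and 12.7 CPM (-1.65 ± 0.46, adjusted p = 0.00767), and -1.15 without P6 library 2, not called. For both genes P6 library 2 was the highest of the 5 libraries. Ifit1, at 536 and 902 CPM and 232, 248 and 268 CPM, was lower in the plain fit alone (GC-adjusted adjusted p = 0.701). The antibacterial lectin Reg3b was at 144 and 2953 CPM at P6 and 502, 207 and 230.4 CPM at P10, and Reg3g at 44.2 and 1152 CPM and 216, 95.8 and 90.3 CPM. P6 library 2 was the highest of the 5 for both and P6 library 1 the lowest, and neither gene passed a fit.

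The cytokines Il18 and Il15 were lower at P10. Il18, which epithelium releases on injury, fell from 56.2 and 103 CPM to 15.1, 14.4 and 16.9 CPM (-1.77 ± 0.37, adjusted p = 0.000932). Il15, which keeps intraepithelial lymphocytes alive, fell from 11.8 and 9.71 CPM to 4.48, 3.67 and 3.98 CPM (-1.48 ± 0.20, adjusted p = 7.9e-06), and held in all 3 fits with each P6 library alone. Camp, the cathelicidin peptide, was low at both ages and rose from 0.133 and 0.245 CPM to 2.46, 1.94 and 2.41 CPM (1.83 ± 0.70, adjusted p = 0.0438), a call lost when any 1 of the 5 libraries was left out (1.66 to 2.34). Of 25 genes of class I antigen presentation 4 rose (Tap2, H2-T3, Psmb8 and Psmb10), close to the 15.4% of all genes. The 2 that fell were H2-Q1 and H2-Q2, against 13.5% of all genes. Neither fall was called without P6 library 2 (plain differences of -1.21 and -0.89), and Psmb8 was not without P6 library 1 (0.74 with GC adjusted). Tap2, of the peptide transporter, rose from 1.15 and 2.45 CPM to 41.0, 44.5 and 42.0 CPM (2.33 ± 0.31, adjusted p = 5.3e-06), and H2-T3, a ligand of intraepithelial T cells, from 112 and 168 CPM to 302, 317 and 336 CPM (0.96 ± 0.16, adjusted p = 9.48e-05). B2m, the class I light chain, was lower in the plain fit alone, at 1711 and 2761 CPM and 751, 742 and 804 CPM (GC-adjusted adjusted p = 0.388). Pigr, which carries IgA across the cell, passed neither fit at 549.7 and 1185 CPM and 1035, 1178 and 591 CPM.

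Crypt-type transcripts were higher in the P10 villus gate for part of the set, while 15.4% of all genes rose and 13.5% fell. On the TMM scale the summed level of the stem cell and Wnt list did not rise. It overlapped between the ages, at 5058 to 6829 CPM at P6 and 3718 to 5286 CPM at P10. All genes tested also summed higher at P6 on that scale, so the P6 sum is raised when compared with shares of counts. Of 33 stem cell and Wnt genes 8 rose and 1 fell, Bmi1, and 5 rose without P10 library 1, without P10 library 2 or without P6 library 2. Axin2, a direct Wnt target, had 32.2 and 20.8 CPM at P6 and 141, 147 and 104 CPM at P10 (0.88 ± 0.29, adjusted p = 0.0229). It was not called without P10 library 1 (0.79), P10 library 2 (0.79) or P6 library 2 (0.60). Ephb3, a guidance receptor of crypt base cells, had 0.707 and 0.490 CPM and then 22.8, 22.5 and 18.7 CPM (2.95 ± 0.29, adjusted p = 2.17e-07). Rgmb, a BMP co-receptor, had 19.2 and 13.5 CPM and then 31.0, 33.4 and 21.7 CPM (1.40 ± 0.23, adjusted p = 5.15e-05). The ages did not overlap for these 3, as for 80.6% of all genes tested (41.9% higher and 38.7% lower), and Ephb3 and Rgmb held in all 3 fits with each P6 library alone. Ephb2 held likewise, from 16.5 and 17.5 CPM to 110, 109 and 95.5 CPM (0.96 ± 0.17). Smoc2, a stem cell matrix protein, rose from 27.9 and 20.1 CPM to 69.0, 70.8 and 44.4 CPM (0.84 ± 0.28, adjusted p = 0.0202), and was lost without the same 3 libraries (0.74, 0.72 and 0.58).

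The stem cell markers used to name crypt base cells did not rise in both fits. Lgr5, the R-spondin receptor of stem cells, was at 156 and 87.0 CPM at P6 and 102, 101 and 83.8 CPM at P10 and passed neither fit. Olfm4, secreted by stem cells, overlapped between the ages, at 2287 and 1087 CPM and 1643, 2105 and 1281 CPM, and passed only with GC adjusted (1.49 ± 0.41, adjusted p = 0.00651). Slc12a2, a crypt chloride carrier, was lower in the plain fit alone, at 2006 and 2369 CPM and 585, 1099 and 781 CPM. Lgr5, Olfm4 and Cd44 were each higher in P6 library 1 than in P6 library 2. In P0 villus cells Lgr5 was at 11.1 ± 5.06 CPM and Axin2 at 18.9 ± 9.94 CPM. In P10 crypt cells Axin2 was at 326 ± 34.4 CPM and Lgr5 at 257 ± 19.4 CPM, and the villus minus crypt differences at P10 were -1.32 ± 0.28 for Axin2 (adjusted p = 0.00165) and -1.43 ± 0.33 for Lgr5 (adjusted p = 0.00323).

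Part of the cell cycle genes rose. Of 46 tested 13 rose and 2 fell, against 15.4% and 13.5% of all genes. In all 3 fits with each P6 library alone 8 rose, against 7.26% of all genes. The count that rose in both fits ran from 10 to 15 with 1 library left out. Mcm5, of the replication helicase, had 13.2 and 11.3 CPM and then 66.4, 71.4 and 58.5 CPM (1.88 ± 0.23, adjusted p = 2.32e-06). Mcm3, of the same complex, had 17.7 and 17.9 CPM and then 77.0, 76.7 and 64.3 CPM (1.30 ± 0.18, adjusted p = 9.35e-06). Kif20a, a kinesin of cell division, had 17.8 and 16.3 CPM and then 39.2, 37.1 and 26.0 CPM (1.31 ± 0.23, adjusted p = 0.000152). Every P10 library was above both P6 libraries for each of these. Cenpa, the histone of centromeres, at 47.3% GC, had 18.4 and 18.6 CPM and then 33.5, 30.9 and 20.6 CPM (0.62 ± 0.17 in the plain fit and 0.92 ± 0.16 with GC adjusted). Birc5, survivin, at 47.4% GC, had 16.8 and 21.9 CPM and then 32.7, 29.9 and 23.5 CPM (1.06 ± 0.20, adjusted p = 0.000239). Both moved against the GC trend. Mki67, the common marker of dividing cells, was at 368 and 286 CPM and 327, 319 and 182 CPM and passed neither fit, and Top2a, a topoisomerase of dividing cells, was lower in the plain fit (-0.90 ± 0.23), higher with GC adjusted (0.55 ± 0.20) and again negative with local GC (-0.25 ± 0.19). The 2 genes that fell were Ccna2 and Pcna.

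**Figure D4:**
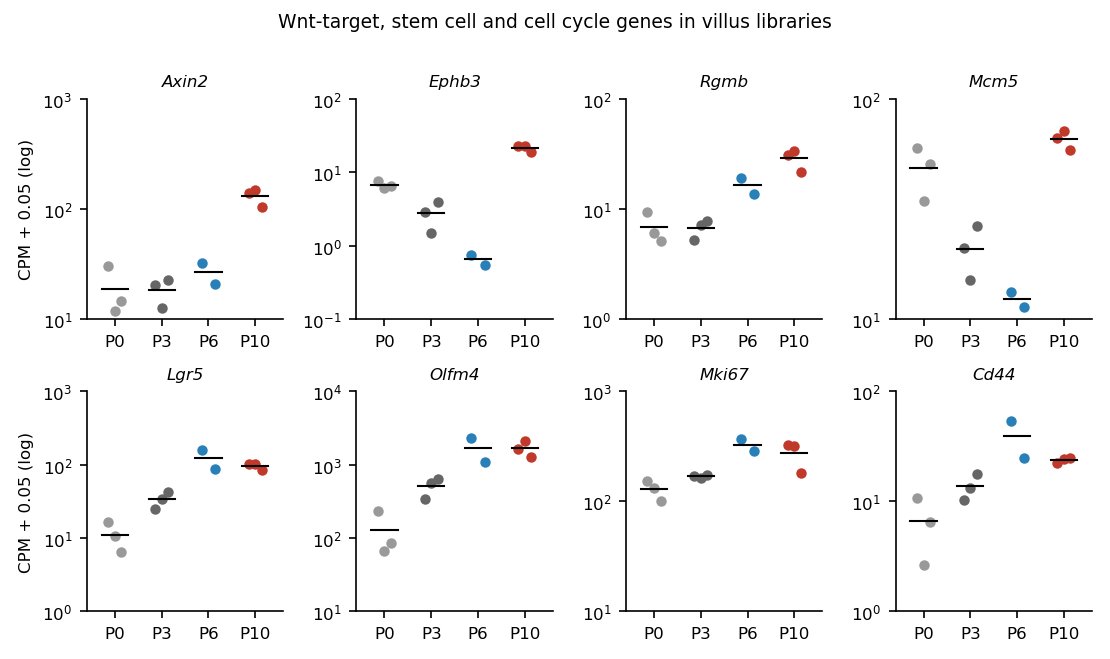
Points are villus libraries at P0, P3, P6 and P10 and bars are group means, in CPM on a log axis, for 8 stem cell, Wnt and cell cycle genes. Axin2, Ephb3, Rgmb and Mcm5 are higher in all 3 P10 libraries than in both P6 libraries, while Lgr5, Olfm4, Mki67 and Cd44 overlap or nearly meet between the ages.

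Transcription factors and structural genes of the epithelium had members that moved in each direction. Of 37 enterocyte transcription factors 8 rose and 7 fell, against 15.4% and 13.5% of all genes. Without P6 library 2 there were 4 fallen. Klf5, a factor of dividing epithelium, went from 50.4 and 50.2 CPM to 228, 216 and 206 CPM at 47.9% GC (2.11 ± 0.15, and 2.50 ± 0.14 with GC adjusted, adjusted p = 5.86e-10), so its rise was larger once GC was adjusted. Esrra, a regulator of mitochondrial genes, went from 2.60 and 5.25 CPM to 209, 207 and 196 CPM (2.44 ± 0.28). Both held in all 3 fits with each P6 library alone. Gata6, a factor of intestinal identity and stem cells, fell from 371 and 366 CPM to 186, 179 and 195 CPM against the trend for its 56.5% GC (-0.98 ± 0.20, and -3.12 ± 0.30 with GC adjusted). Prdm1, a repressor that holds back adult enterocyte genes in the suckling pup, fell from 471 and 413 CPM to 153, 194 and 197 CPM (-1.29 ± 0.21, and -0.43 ± 0.16 with GC adjusted, adjusted p = 0.0341). The Prdm1 call was lost without P10 library 1 (-0.36), P6 library 1 (-0.41) or P6 library 2 (-0.48). Hnf4a, a master factor of enterocytes, was higher in the plain fit alone.

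Of 31 cell junction genes 6 rose and 10 fell, with 5 lower without P10 library 1, 5 without P6 library 1 and 3 without P6 library 2, and the plain split of 11 higher and 12 lower became 13 and 8 with library size alone. Cldn3, a tight junction claudin, rose from 0.397 and 0.589 CPM to 198, 196 and 153 CPM (4.91 ± 0.40, adjusted p = 4.59e-08), with 186 ± 49.4 CPM at P0. Jup, plakoglobin of desmosomes, rose from 10.6 and 15.5 CPM to 307, 348 and 357 CPM (1.97 ± 0.17, adjusted p = 6.88e-08). Cdh1, E-cadherin, passed neither fit at 1122 and 1286 CPM and 901, 1147 and 998 CPM. Among keratins, annexins and galectins 8 of 22 rose and 1 fell, Anxa4. Krt7 rose from 7.86 and 7.41 CPM to 135, 136 and 91.96 CPM (3.38 ± 0.50, adjusted p = 3.25e-05) and Krt8 from 57.7 and 62.7 CPM to 1033, 1040 and 862 CPM (1.61 ± 0.17, adjusted p = 4.91e-07). Of 30 genes of hemidesmosomes and basement membrane 9 rose and 3 fell (Itgav, Itgb1 and Rac1), against 15.4% and 13.5% of all genes. Itgb4, the integrin of hemidesmosomes, rose from 7.51 and 8.78 CPM to 118, 144 and 157 CPM (1.28 ± 0.20, adjusted p = 3.28e-05), and Lamb3, a laminin chain, from 0.309 and 0.196 CPM to 5.79, 6.21 and 4.84 CPM (2.71 ± 0.49, adjusted p = 0.000169). Itga6, the partner chain of Itgb4, passed neither fit at 277 and 249 CPM and 162, 196 and 159 CPM.

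Among genes averaging 3 or more in log2 CPM that passed both fits, also without either P6 library, the largest GC-adjusted rises included Gstt2, a glutathione transferase, from 1.24 and 2.26 CPM to 28.7, 27.2 and 21.8 CPM (3.82 ± 0.40), and Dad1, a subunit of the oligosaccharyltransferase. Dad1 went from 8.35 and 12.85 CPM to 99.3, 97.5 and 86.8 CPM at 46.8% GC (3.16 ± 0.32, and 3.79 ± 0.37 with GC adjusted, adjusted p = 3.63e-07), a direction opposite to the trend. Aldh16a1 went from 1.68 and 2.94 CPM to 161, 169 and 176 CPM (3.81 ± 0.28). The largest falls included Arf6, a small GTPase of endocytosis, from 605 and 604 CPM to 172, 175 and 172 CPM at 60.04% GC (-1.80 ± 0.19, and -4.99 ± 0.40 with GC adjusted). Tmed7, of vesicle transport between endoplasmic reticulum and Golgi, fell from 1242 and 1071 CPM to 166, 177 and 196 CPM (-3.43 ± 0.40, adjusted p = 2.59e-06), and Chchd2, a mitochondrial protein, from 307 and 302 CPM to 94.0, 86.8 and 81.9 CPM (-3.40 ± 0.19, adjusted p = 5.53e-10). In total 263 genes (1.61%) were called higher and 592 (3.63%) lower in the plain fit against the direction of their own GC trend, together 5.24%.

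The change from P6 to P10 was set beside the same change in crypt cells. In crypt cells 6154 genes were higher (37.2%) and 5315 lower (32.1%) in the plain fit, 69.4% of those tested. The difference between the 2 changes was tested as an interaction, and 0 of 16535 genes passed edgeR's adjusted threshold, with 241 at an unadjusted p under 0.05, a smaller share of the genes than that threshold itself. With villus and crypt libraries of the same number paired within each age (the replicate block) there were 322 unadjusted and 0 adjusted. DESeq2 gave 296 and limma-voom 200 at that unadjusted level, and 0 adjusted in both. For Lyz1 the change was 2.77 ± 0.50 in villus cells and 3.42 ± 0.44 in crypt cells (adjusted p of the difference = 1), and for Defa26 4.53 ± 0.60 and 4.76 ± 0.51. For Hspa5 it was -1.39 ± 0.20 and -1.27 ± 0.19, and for Tff3 4.34 ± 0.53 and 4.10 ± 0.44. No gene named here can thus be called particular to the villus gate, and a missed threshold does not show that the changes were equal.

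**Figure D5:**
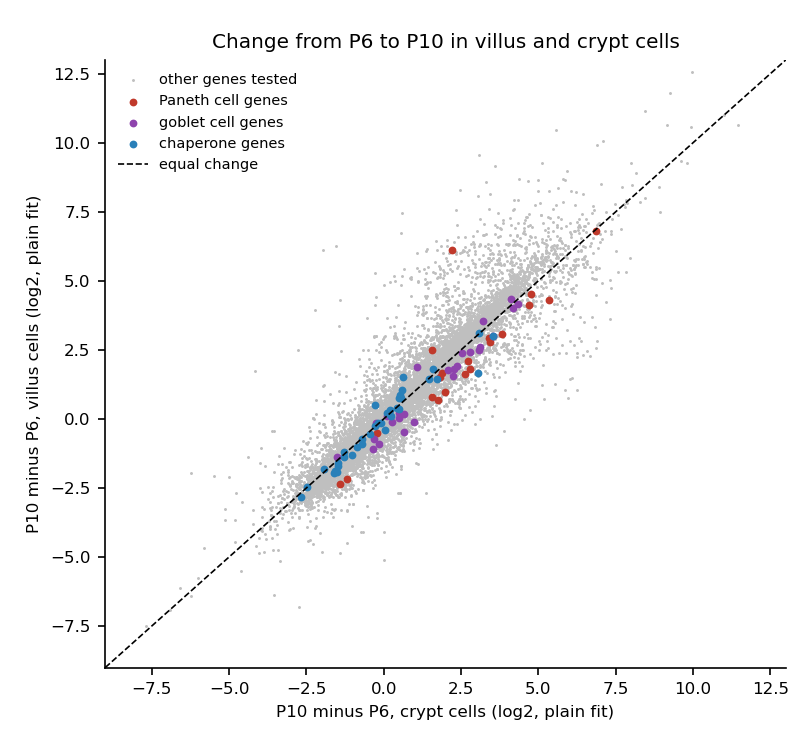
Each point is a gene, with the P10 minus P6 difference (log2, plain fit) in crypt cells on the x axis and in villus cells on the y axis, and a line of equal change. Paneth, goblet and chaperone genes are coloured, and 0 genes passed the test of the difference; genes with no count in 1 age have fitted values that depend on the prior count.

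Markers of other cells were counted in the same libraries, in which 15.4% of all genes rose in both fits. The summed level of 21 tested immune markers was 49.3 and 62.7 CPM at P6 and 41.4 to 66.4 CPM at P10, with 2 of 21 risen (Lyz2 and Gzmb) and 0 risen without P6 library 1, and that of 20 mesenchymal and endothelial markers 27.5 and 30.3 CPM and then 31.6 to 38.0 CPM, with 2 risen (Pdgfrb and Pecam1), 1 without P10 library 2 or P6 library 1 and 0 without P6 library 2. The 3 tested red cell markers summed to under 2 CPM in all 5 libraries, with 1 lower in the plain fit and 0 called in both fits. Pancreas and liver markers summed to 30.1 and 33.5 CPM at P6 and 158.8 to 314.5 CPM at P10, and the 1 of 12 that rose was Ctrb1, a pancreatic protease precursor, from 9.14 and 6.28 CPM to 124, 292 and 168 CPM (1.80 ± 0.56), not called without P10 library 2 (1.38) or P6 library 2 (1.62). The pancreatic genes Cpa1, Prss1, Prss2 and Pnlip had no count in all 5 libraries. The part of these transcripts in the other results was not tested.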

How the data were processed

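Poly(A) RNA of sorted villus cells was sequenced, and the authors deposited read counts per gene symbol, made with Trim Galore, STAR and HTSeq on build mm9, per the submitters' processing notes; their versions and the strand setting are not given in the sources used here. HTSeq's 5 summary lines were left out, which leaves 47593 symbols; of all reads listed, those outside any gene were 9.48% to 13.3% in the 5 villus libraries. Library totals, set the counting error of each level.

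edgeR 4.0.16 (R 4.3.3) fitted all 23 libraries with 1 mean per age and population, so that all groups share 1 estimate of the spread (15 residual degrees of freedom). Low genes were dropped by filterByExpr (count 10, total 15), and p-values were adjusted by Benjamini-Hochberg at 0.05. Log2 CPM levels, also those behind the GC offsets, used a prior count of 2. The log2 differences came from the fits themselves, with edgeR's default prior. The GC-adjusted fit took offsets from natural splines of GC content and length (5 degrees of freedom) in each library, for the 98.76% of tested genes with a transcript in the mouse annotation. The local GC fit was chosen after the data had been seen. DESeq2 1.42.0, limma-voom (limma 3.58.1), other scalings and filters, and each library left out were alternatives. The fitting steps were tested on simulated data whose GC trend came from the same curves as the offsets. That test cannot show how well the offsets remove the real trend.

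The members and the 48 gene lists were chosen with earlier results of these data known. Genes were named by rule: the 12 largest GC-adjusted differences each way with a mean log2 CPM of 3 or more, called in both fits and without either P6 library and not overlapping; per list up to 4 called and 2 uncalled members; 6 each way against the GC trend; and a fixed set of marker genes. AY761184, Mptx1, Mptx2, Mmp7, Axin2, Smoc2, Cenpa, Birc5, Aldoa, Pfkp, Parp9, Hspa5, Hsp90b1, Canx, Hspd1, Fcgbp, Spdef, Itgb4, Camp, H2-T3, Fabp2 and the members named in brackets after a count were chosen after their values were seen. Villus and crypt libraries of the same number deviated together within an age (correlations of 0.758, 0.742 and 0.769 at P10, 0.651 and 0.448 at P6), which pairs them in the data, though the labels do not say so. Some genes that the rule names are not reported here.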

Additional observations from a re-analysis of the deposited data

How the results depend on the processing

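With 1 of the 5 libraries left out, the plain fit called 5444 to 5788 genes higher and 4077 to 5256 lower, the GC-adjusted fit 2162 to 2933 and 2460 to 3093, and both fits 1938 to 2400 and 1493 to 1993. With library size alone as scaling, the genes lower in the plain fit numbered 3548, and the genes lower in both fits numbered 1397 when the local GC fit was required too. DESeq2 called 6007 higher and 5440 lower, limma-voom 5769 and 5550, and a fit of only the 5 libraries 5892 and 5193. Villus libraries of the same number at P6 and P10 did not deviate together (correlations of 0.08 and -0.067), so they share only a number; with the replicate block both fits called 2440 higher and 2074 lower, and the plain fit 5793 and 5381. The interaction with crypt cells gave 0 calls at each of 23 settings, with 125 to 1001 genes at an unadjusted p under 0.05 and a smallest adjusted p of 0.522, found without P6 crypt library 1; the replicate block there pairs villus and crypt libraries within each age and gave 322 unadjusted and 0 adjusted. With library size alone the plain difference changed sign for Txn1 (0.139), Xbp1 (0.051) and Muc13 (0.465), and with local GC offsets the GC-adjusted one of Gsr (0.102) and Top2a (-0.246) did; the cause was not tested. Only 2 P6 libraries were analysed, which limits the precision of every difference.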

Other observations

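Some further gene groups held single members that moved between P6 and P10 in both fits, in which 15.4% of all genes rose and 13.5% fell. Junb, a growth-response transcription factor, rose from 4.37 and 4.22 CPM to 249.9, 196 and 145 CPM (2.04 ± 0.40 with GC adjusted, adjusted p = 0.000421), while 1 other of 30 immediate-early genes was called in both fits, Gadd45a, which fell, though not without P6 library 1 (-0.74 in the plain fit). Jun stood at 523 and 481 CPM and 1440, 1092 and 962 CPM and was called only in the plain fit. Cebpd, a transcription factor of glucocorticoid and cytokine responses, rose from 0.751 and 0.638 CPM to 6.13, 3.67 and 2.77 CPM (2.19 ± 0.39), and Tob1, a brake on proliferation, fell from 879.8 and 764 CPM to 178, 191 and 149.5 CPM (-1.44 ± 0.29). For Junb, Cebpd and Tob1, and for Cry1, Gpx1, Gpx2 and G6pdx below, the call held in both fits with each of the 5 libraries left out in turn.

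Of 19 clock genes 1 rose and 4 fell, but only 1 fell when P10 library 1, P10 library 3 or either P6 library was left out. That 1 was Cry1, a clock repressor, from 43.4 and 41.3 CPM to 21.7, 26.7 and 23.7 CPM (-1.27 ± 0.18, adjusted p = 1.49e-05). Per1, which rose from 3.22 and 4.76 CPM to 43.7, 54.3 and 64.4 CPM (1.01 ± 0.26), had a local GC value of 0.41 ± 0.27 (adjusted p = 0.27). Hours of tissue collection are not given in the labels. Of 20 glutathione and NRF2 genes 3 rose, the peroxidases Gpx1 (26.1 and 35.9 CPM to 384, 410.2 and 319 CPM) and Gpx2 (3.93 and 7.46 CPM to 61.2, 45.5 and 34.9 CPM) and G6pdx, of the pentose phosphate path (11.6 and 11.3 CPM to 35.6, 38.0 and 33.4 CPM). In the same group 4 fell (Gclc, Gsr, Cat and Nfe2l2), with 2 lower without P6 library 1 and 1 without P6 library 2. Among 338 zinc finger genes named Zfp 70 were higher and 190 lower in the plain fit, at a median GC content of 45.2%. In both fits 25 rose, a smaller share than the 15.4% of all genes. The 45 that fell were close to the 13.5% of all genes, with 26 fallen without P10 library 1 and fewer also without P6 library 1. Of 44 histone genes tested 7 rose, close to the 15.4% of all genes, and none fell. Fewer rose when either P6 library was left out, and poly(A) selection leaves most histone transcripts out. Of the 9 mitochondrially encoded genes tested 6 were lower in the plain fit, 2 were higher and 1 lower with GC adjusted, and mt-Nd2 alone fell in both, a call lost when any 1 of the 3 P10 libraries or P6 library 2 was left out.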
